A study of Mus musculus with 151 samples.

Results

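The naturally conceived mouse ovary was followed from late fetal life to young adulthood by comparing 4 whole-gonad RNA libraries taken late in gestation (E18.5, counted from the mating plug) with 4 ovary libraries taken at 12 weeks, across all genes. These 8 libraries, all labelled Natural, are 8 of the 151 samples of the series, which sets naturally conceived female offspring against offspring conceived by IVF. They were chosen by their labels alone and their tables were joined by gene name. Both Natural groups came from CF-1 females mated with B6/SJL males and carried no allele, drug or culture step. Fetuses were collected at E18.5, whereas the 12-week animals were delivered by c-section, nursed by CF-1 foster dams and housed in groups, and part of 1 frozen ovary per female was used. Adult females used for serum hormones were killed at proestrus according to the methods, which do not tie that to the ovaries sequenced. The ages were deposited in separate tables and the labels name no sequencing batch, so age and any batch that runs with the tables cannot be told apart.

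The mouse ovary is built around the oocyte. Germ cells enter meiosis in the fetus, pass through meiotic prophase and arrest around birth, when each is enclosed by pregranulosa cells in a primordial follicle. After birth follicles grow in waves. Granulosa cells around the growing oocyte make inhibins, anti-Mullerian hormone and estrogen, theca cells make androgens, and after ovulation the follicle becomes a corpus luteum that makes progesterone. In RNA from a whole organ, fewer cells of a type and less RNA per cell cannot be told apart, and this holds for every value below.

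Depth was 10689553 to 14830788 counts in the E18.5 libraries and 20366410 to 29904780 in the 12-week libraries, and the labels number the replicates as separate ovaries. The methods describe individuals of different litters, and more of them in each group than the 4 libraries analysed here, but the labels name no dam or litter. The p-values of the age comparison set the age difference against the spread between these ovaries. Levels are CPM, read counts relative to library size, scaled by TMM, a factor that evens out library composition, and they are not divided by gene length, so they compare libraries and never genes. Ages are compared by the log2 fold change of 12 weeks over E18.5, given with its standard error, and a gene was called at a Benjamini-Hochberg adjusted p below 0.05 in edgeR's quasi-likelihood test. On log2 CPM, 74.8% of the variation among the 8 libraries lay between the ages (exact permutation p = 0.0286, one-sided, the smallest that 4 against 4 can give). Correlation across genes was 0.942 to 0.977 within an age and 0.776 to 0.815 between ages, as a description over genes that are not independent. The granulosa gene Foxl2 was at 150.2, 185, 109 and 199 CPM at E18.5 and at 201, 207, 216 and 208 CPM at 12 weeks (replicates 1 to 4 in order, as in every list of 4 values below), so this ovarian marker was present in all 8. Y-linked Ddx3y was at 0.338, 0, 0 and 0 CPM at E18.5 and at 0 in all 12-week libraries.

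Of 17178 genes tested, 4197 (24.4%) were higher and 4475 (26.1%) were lower at 12 weeks. At a change of at least 2-fold the calls were 2553 higher (14.9%) and 2463 lower (14.3%), and for 47.6% of tested genes the 4 values of one age did not overlap the 4 of the other. The median log2 change of all tested genes was -0.04. Counts of called members below are read against 24.4% and 26.1%. The lists hold textbook genes of each cell type or pathway, and the plot of list members shows where each one lay.

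**Figure D1:**
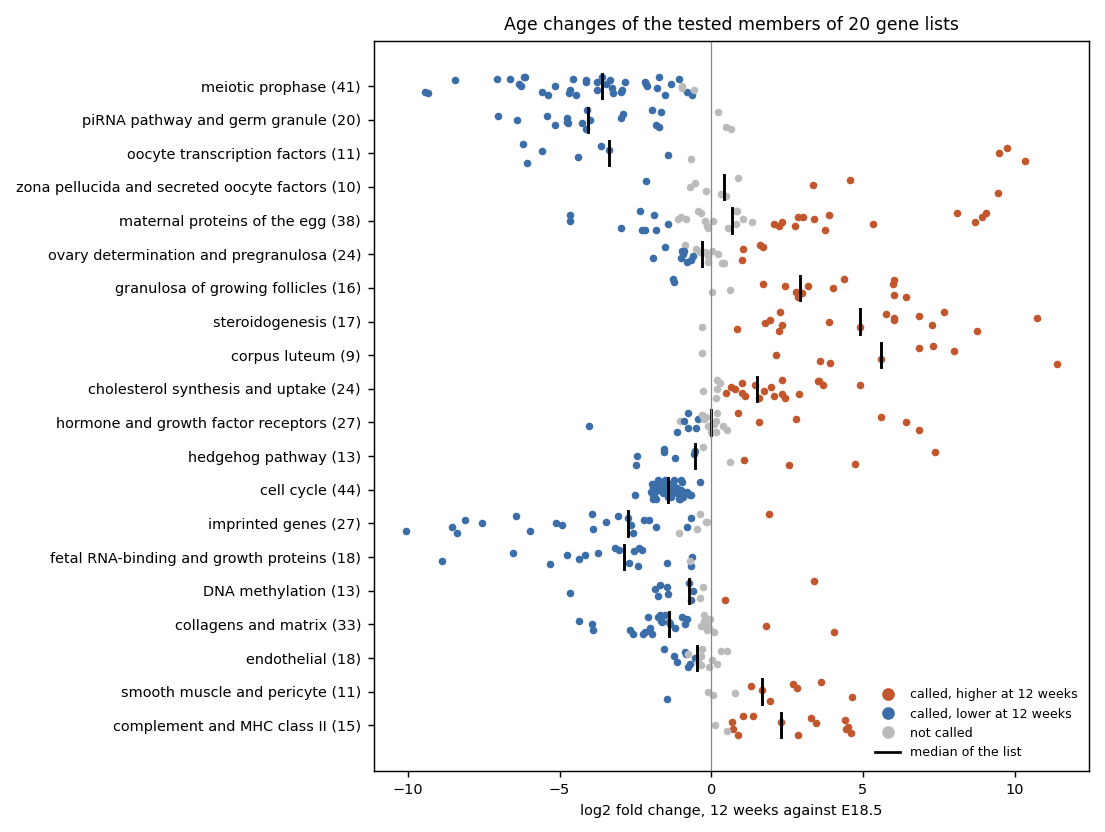
Each point is 1 tested gene of a list, placed by its log2 fold change at 12 weeks against E18.5 (4 ovaries each), with called genes in colour and the list median as a bar; the number tested is in parentheses. The medians of the meiotic, piRNA, cell cycle and imprinted lists lie left of 0 and those of the granulosa, steroidogenesis, corpus luteum and complement lists right of it, with single genes on the other side in several.

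Genes of meiotic prophase were lower at 12 weeks almost without exception. Of 41 members tested, 38 fell and the other 3 were not called, with a median log2 change of -3.60, and 35 to 38 fell when any 1 library was left out. Summed over the list, levels were 768, 999, 529.9 and 877 CPM at E18.5 and 124, 105, 139 and 114 CPM at 12 weeks, with no overlap and with E18.5 replicate 3 the lowest of its group. Smc1b, the meiosis-specific cohesin subunit, was at 91.2, 94.4, 35.5 and 119 CPM at E18.5 and 0.489, 0.942, 0.687 and 1.25 CPM at 12 weeks, a log2 change of -6.64 ± 0.44 (adjusted p = 4.46e-06). Sycp3, a component of the lateral elements of the synaptonemal complex, went from 59.2 ± 20 to 2.32 ± 0.564 CPM (mean ± SD, n = 4 ovaries an age), a log2 change of -4.67 ± 0.31. Its partner Sycp1, the transverse filament protein, fell by 5.39 on the log2 scale. The central element gene Syce3 was at 4.06, 6.21, 2.17 and 5.67 CPM at E18.5 and had no count in any 12-week library, which makes it at least 156-fold lower against a floor of 3 counts over the group.

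Recombination genes fell as well. Hfm1, a helicase needed for crossover formation, was at 8.29, 6.92, 2.37 and 3.41 CPM at E18.5 and 0.0816, 0, 0.0344 and 0.135 CPM at 12 weeks (-6.17 ± 0.70, adjusted p = 7.63e-05). Spata22, which works with MEIOB on single-stranded DNA, fell by 3.76 on the log2 scale, and Dmc1, the meiotic recombinase, by 1.79. Dmc1 was low already at E18.5, at 1.18, 4.52, 2.57 and 4.12 CPM. The 3 tested members that were not called were Psmc3ip at -0.56, Majin at -0.96 and Ccdc155 at -0.96. Stra8, which opens the meiotic program earlier in fetal life, had no count in any of the 8 libraries. Hormad1, which marks unsynapsed chromosome axes, had 6.93, 20.2, 5.54 and 8.63 CPM at E18.5 and 1 count in total at 12 weeks, a ratio of 1061 (95% counting interval 189.6 to 42008). That count was in 12-week replicate 4, and the other 12-week libraries had none. Leaving out 1 library moved the log2 change by over 1.5-fold, to -6.78 for Hfm1 without 12-week replicate 4.

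The piRNA pathway and germ granule genes, which silence transposons in germ cells, were also lower. Of 20 tested, 17 fell and the other 3 were not called, with a median of -4.05. Mael was at 65.1, 86.6, 34.1 and 89.7 CPM at E18.5 and 1.06, 1.24, 2.2 and 1.89 CPM at 12 weeks (-5.41 ± 0.37, adjusted p = 5.28e-06). The germ cell helicase Ddx4 went from 42.5, 45.2, 15.8 and 38.7 to 1.06, 2.68, 1.86 and 2.49 CPM, a log2 change of -4.14. The RNA-binding germ cell factor Dazl fell by 4.01 and the RNA helicase Mov10l1 by 7.03. Tdrd7 (0.23), Piwil4 (0.64) and Dnd1 (0.50) were the tested members not called.

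The promoters of these germ cell genes are shown because members fell together. Over the 250 bases before the start in the RefSeq promoter table (GRCm38.p6), CACGTG, a palindromic E-box, was present in 8 of 34 meiotic promoters and 8 of 19 piRNA promoters. It was in 6.86% of all 27025 symbols in that table and in 9.34% of those of tested genes. Among genes called lower it was in 9.33%, and among genes called higher in 9.45%. It was 1 of 20 motifs searched on both strands and was picked for display after those counts were seen. Starts are those of the promoter table, and the Ddx4 stretch lies inside the RefSeq span of that gene (chr13:112598333-112652633). Capitals mark the CACGTG matches in 4 members.
Sycp3 (chr10:88459337-88459586, + strand): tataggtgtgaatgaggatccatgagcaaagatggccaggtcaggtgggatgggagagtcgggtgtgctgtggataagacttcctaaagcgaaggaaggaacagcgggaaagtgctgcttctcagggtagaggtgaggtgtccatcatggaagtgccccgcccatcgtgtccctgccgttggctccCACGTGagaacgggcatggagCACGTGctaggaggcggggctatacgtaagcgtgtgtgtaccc
Hormad1 (chr3:95559427-95559676, + strand): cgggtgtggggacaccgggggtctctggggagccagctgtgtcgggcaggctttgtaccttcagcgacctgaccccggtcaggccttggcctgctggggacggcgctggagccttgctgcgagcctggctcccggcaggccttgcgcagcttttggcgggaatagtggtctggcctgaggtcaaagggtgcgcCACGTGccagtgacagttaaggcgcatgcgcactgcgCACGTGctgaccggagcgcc
Mael (chr1:166238745-166238994, - strand): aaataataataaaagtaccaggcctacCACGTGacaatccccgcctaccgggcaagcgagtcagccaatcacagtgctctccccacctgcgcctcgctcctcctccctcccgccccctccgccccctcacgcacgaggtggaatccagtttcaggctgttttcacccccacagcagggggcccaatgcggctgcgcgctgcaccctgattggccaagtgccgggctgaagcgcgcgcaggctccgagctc
Ddx4 (chr13:112652311-112652560, - strand): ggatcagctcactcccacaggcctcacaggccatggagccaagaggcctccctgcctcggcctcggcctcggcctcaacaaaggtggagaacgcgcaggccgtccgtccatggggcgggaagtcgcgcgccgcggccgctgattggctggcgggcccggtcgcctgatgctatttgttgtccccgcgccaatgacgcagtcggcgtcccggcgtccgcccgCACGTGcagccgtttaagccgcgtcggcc

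Transcription factors of the early oocyte fell, while Obox genes appeared. Of 11 tested, 7 fell and 3 rose. Figla, which is needed for primordial follicles to form, was at 45, 74.6, 26.2 and 107 CPM at E18.5 and 0.0816, 0.992, 1.1 and 1.48 CPM at 12 weeks, a change of -6.08 ± 0.65 (adjusted p = 5.38e-05). Sohlh1, a germ cell helix-loop-helix factor, went from 77.6, 125, 38.2 and 146 to 0.734, 2.03, 0.79 and 1.72 CPM (-6.21 ± 0.52). The homeobox genes Nobox and Lhx8 fell by 3.37 and 4.38. In each of these genes every E18.5 library exceeded every 12-week library, and E18.5 replicate 3 was the lowest of its group. The homeobox gene Obox5 had no count at E18.5 and 3.75, 7.29, 5.36 and 6.47 CPM at 12 weeks, at least 92.9-fold higher, and Obox2 was at least 137-fold higher. Obox genes are a family of near-identical copies, so reads may be split among them.

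Genes of the growing oocyte did not move as 1 group. Among zona pellucida and secreted factors, listed together with the receptor Kit, 3 of 10 tested rose and 6 were not called. The 1 that fell was Kit. Zp2, a sperm-binding coat protein, was at 51.4, 62.8, 25.2 and 105 CPM at E18.5 and 23, 65.1, 25.1 and 56.9 CPM at 12 weeks, and its log2 change of -0.53 had a 95% interval of -1.52 to 0.47. For Zp3 the interval was -1.46 to 1.14 and for Zp1 -0.70 to 1.67, so changes of more than 2-fold in at least one direction lie within each of them. Gdf9, an oocyte growth factor that acts on granulosa cells, had 18.2, 27.1, 7.51 and 54.5 and then 32.9, 67.8, 36.1 and 61.2 CPM (0.88 ± 0.49, adjusted p = 0.165). Without E18.5 replicate 4, the highest of its group, Gdf9 was called at a log2 change of 1.53 (adjusted p = 0.0152). Bmp15, the X-linked relative of Gdf9, rose from 1.01, 1.24, 1.58 and 3.61 to 14.1, 22.4, 16.6 and 25.6 CPM, a change of 3.37 ± 0.41 (adjusted p = 1.13e-04). Oosp1, an oocyte-secreted protein, was at 0 in all E18.5 libraries and at 3.43, 7.14, 2.82 and 5.05 CPM at 12 weeks, at least 74.9-fold higher. Kit, the receptor for granulosa-derived Kit ligand, fell by 2.13 and went from 326, 258, 119 and 262 to 44.2, 35.1, 74.7 and 65.6 CPM. With 1 library left out the change became 3.99 for Bmp15 without E18.5 replicate 4.

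Maternal proteins stored by the egg were split in direction. Of 38 tested, 14 rose, 9 fell and 15 were not called, with a median of 0.68. Rises without any E18.5 count included Nlrp2, at least 56.5-fold higher. Zar1, an egg RNA-binding protein, was at 1.52, 0.887, 0.791 and 6.18 CPM at E18.5 and 11, 24.3, 8.35 and 21.8 CPM at 12 weeks (2.75 ± 0.66, adjusted p = 0.00585). Falls included Dppa3, which protects methylation in the zygote, by 4.64, the germ cell Y-box protein Ybx2 by 4.65, and Nlrp5, a subcortical complex member, by 2.17. Nlrp5 had 92.9, 75.2, 89.6 and 145 CPM at E18.5 and 12.6, 30.3, 17.2 and 29.4 CPM at 12 weeks. Ooep (-0.99), Mos (0.82) and the oocyte linker histone H1foo (0.81) were not called, but each was with 1 library left out: Ooep without E18.5 replicate 3 (-1.24, adjusted p = 0.0404), Mos without E18.5 replicate 4 (1.33, adjusted p = 0.0276) and H1foo without E18.5 replicate 4 (1.28, adjusted p = 0.0106). A left-out library changed the estimate to 3.96 for Zar1 without E18.5 replicate 4.

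**Figure D2:**
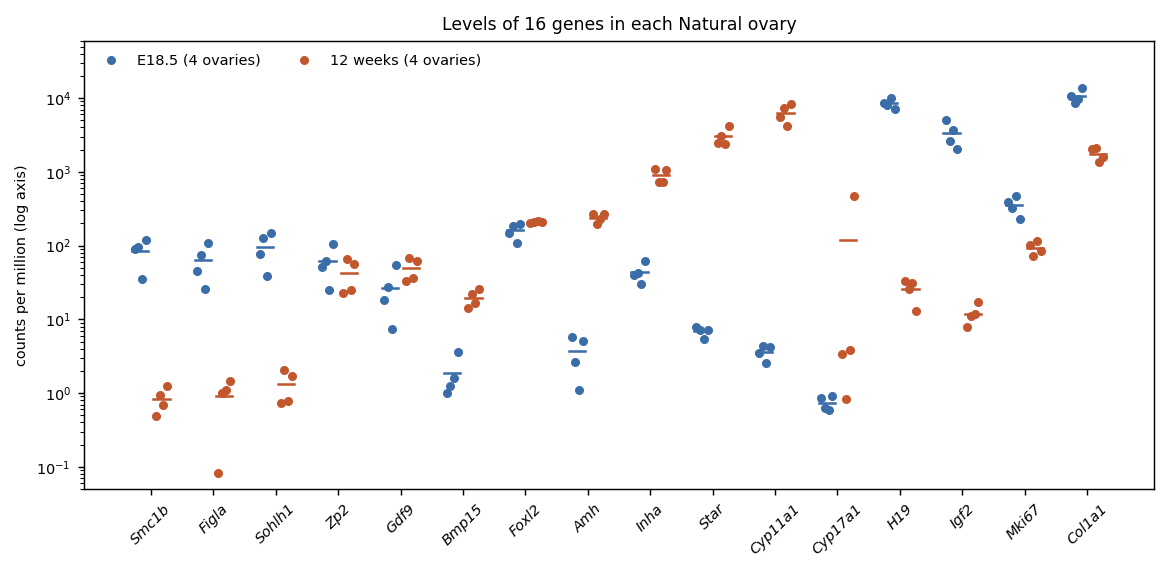
CPM on a log axis for 16 genes in each of the 4 E18.5 and 4 12-week Natural ovaries; points are libraries and short lines are means. Smc1b, Figla and Sohlh1 are separated downward and Star and Cyp11a1 upward, Zp2 and Gdf9 overlap, and Cyp17a1 is high in 1 of the 4 12-week libraries.

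The 36 Natural single oocytes and 5 Natural cumulus cell libraries taken at 12 weeks from superovulated females gave another view of where these transcripts lie. Genes were put in an oocyte class when their mean CPM was at least 8-fold that of cumulus cells (1 added to each) and at least 5 in the higher, and in a cumulus class by the converse. In the ovary, 768 of 1767 oocyte-class genes fell (43.5%, against 26.1% of all tested) and 286 rose (16.2%, against 24.4%). Of 1958 cumulus-class genes, 898 rose (45.9%) and 253 fell (12.9%). The median log2 changes of the classes were -0.40 and 0.33. Genes with early roles were not all absent from the mature oocyte: Dazl had a mean of 1225 CPM in oocytes and Dppa3 1338, although both fell in the whole ovary. Sohlh1 had 0.0132 CPM in oocytes, with a count in 1 of the 36, and Figla 2.03. The library name of the fifth Natural cumulus sample begins with the same number code as oocytes labelled IVF, and the label Natural was kept. Without it, 764 of 1755 oocyte-class genes fell and 283 rose, and 924 of 2033 cumulus-class genes rose and 262 fell. These libraries were made by another method than the ovary libraries and their levels are not compared with them.

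**Figure D3:**
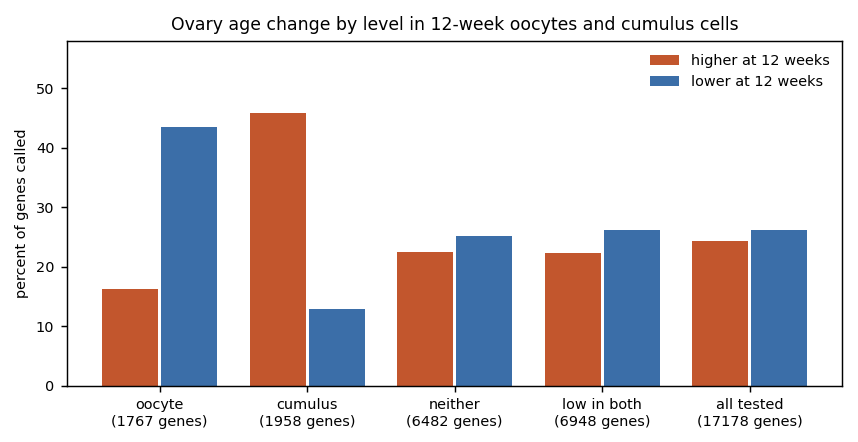
Percent of genes called higher or lower at 12 weeks against E18.5 in Natural ovary, for genes grouped by their mean level in 12-week Natural oocytes (36) and cumulus cells (5 libraries), beside all tested genes. The oocyte class has 43.5% lower and 16.2% higher, and the cumulus class 12.9% lower and 45.9% higher.

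Granulosa genes of growing follicles rose. Of 16 tested, 12 rose and 2 fell, with a median of 2.94. Amh, anti-Mullerian hormone of small growing follicles, was at 5.83, 2.66, 1.09 and 5.15 CPM at E18.5 and 266, 194, 229.9 and 269.7 CPM at 12 weeks (5.99 ± 0.40, adjusted p = 4.45e-06). Inha, the inhibin alpha subunit, went from 40.1, 42.7, 30.1 and 61.3 to 1103, 731, 726 and 1063 CPM, a change of 4.38 ± 0.26. The receptor for follicle-stimulating hormone, Fshr, had 6 counts over the 4 E18.5 libraries and 11.7, 5.85, 10.1 and 16.7 CPM at 12 weeks, a change of 6.42. Aromatase, Cyp19a1, which makes estrogen, went from 0.507, 0, 0.395 and 0.258 to 14.7, 6.5, 9.65 and 45.7 CPM (6.02 ± 0.84), with 12-week replicate 4 the highest. Nr5a2, a nuclear receptor of granulosa cells, rose by 4.00. The members that fell were Ccnd2, cyclin D2, at -1.22, and Gatm, an enzyme of creatine synthesis, at -1.25. The change moved to 7.60 for Fshr without E18.5 replicate 2 and 5.13 for Cyp19a1 without 12-week replicate 4.

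Genes of ovary determination and pregranulosa cells moved less. Of 24 tested, 4 rose, 9 fell and 11 were not called, with a median of -0.30. Rspo1, a secreted Wnt activator of ovary determination, fell from 80.7, 77.5, 58.1 and 104 to 17.6, 27, 17.3 and 23.5 CPM (-1.91 ± 0.21, adjusted p = 6.16e-05). Fst, follistatin, rose from 29.9, 35.7, 14.2 and 42.2 to 139.6, 59.5, 79.3 and 95.3 CPM (1.61 ± 0.34). Foxl2 was not called, at 0.37 with an interval of -0.01 to 0.75, although each 12-week library exceeded each E18.5 library, and it was called without E18.5 replicate 4 (0.53, adjusted p = 0.0292). For Wnt4 the interval was -0.71 to 0.77, and Lgr5, a Wnt receptor partner, was not called at -0.38, but was called as Lgr5 without 12-week replicate 4 (-0.92, adjusted p = 0.0453). Irx3, a homeobox factor, was called lower at -0.93, but not when E18.5 replicate 2 or 4 or 12-week replicate 3 or 4 was left out (adjusted p = 0.0526 to 0.0752). Lgr6 showed the largest called rise of the list, at 1.72.

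Steroid hormone synthesis genes rose almost without exception. Of 17 members tested, 16 rose, with a median of 4.90, and 16 rose whichever 1 library was left out. Star (chr8:25808474-25815982, GRCm38.p6), which delivers cholesterol to the inner mitochondrial membrane, was at 7.78, 7.19, 5.34 and 7.15 CPM at E18.5 and 2426, 3027, 2424 and 4213 CPM at 12 weeks, a change of 8.78 ± 0.28 (adjusted p = 3.47e-07). Cyp11a1 (chr9:57998024-58027031), which cuts the cholesterol side chain, went from 3.47, 4.35, 2.57 and 4.25 to 5477, 7297, 4132 and 8409 CPM (10.74 ± 0.36). Hsd3b1, which makes progesterone from pregnenolone, rose by 7.68. Nr5a1, the nuclear receptor that drives steroid enzymes, rose from 53.4, 62.9, 24.5 and 74.5 to 163, 177, 115 and 279 CPM (1.77 ± 0.35, adjusted p = 0.00198).

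Cyp17a1 and Lhcgr were uneven among the 12-week ovaries. Cyp17a1, the androgen-making enzyme of theca cells, was at 0.846, 0.621, 0.593 and 0.902 CPM at E18.5 and 3.38, 0.843, 3.88 and 467 CPM at 12 weeks, and the ages overlapped. Its log2 change of 7.29 ± 2.13 (adjusted p = 0.0165) became 1.86 (adjusted p = 0.0219) without 12-week replicate 4. Lhcgr, the receptor for luteinizing hormone, was at 0.507, 0.177, 0.494 and 0.515 and then 33.8, 4.31, 20.4 and 144 CPM (6.87 ± 1.13), again highest in 12-week replicate 4. The only tested member not called was Stard6, at -0.31, a relative of Star. Leaving out 1 library moved the log2 change by over 1.5-fold, to 5.50 for Lhcgr without 12-week replicate 4.

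Genes of the corpus luteum rose in 8 of 9 cases, with a median of 5.59. Akr1c18, which inactivates progesterone, was at 1.18, 0.355, 0.198 and 1.22 CPM at E18.5 and 891, 2805, 999 and 3824 CPM at 12 weeks (11.40 ± 0.77, adjusted p = 4.65e-06). Ptgfr, the receptor through which prostaglandin F2 alpha acts on luteal cells, rose from 5.75, 3.73, 2.08 and 4.12 to 719, 1187, 745 and 1392 CPM (8.00 ± 0.38). Prlr, the prolactin receptor, rose by 5.59. Within the 12-week group, replicates 2 and 4 were the higher pair for Akr1c18, Ptgfr and Cyp11a1. Parm1 was not called, at -0.29.

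Cholesterol synthesis and uptake rose with them. Of 24 tested, 19 rose and 5 were not called, with a median of 1.5. Scarb1, the receptor that takes cholesterol from high-density lipoprotein, had the largest change, from 47.9, 53.9, 51.6 and 62.9 to 1216, 2144, 1478 and 1613 CPM (4.90 ± 0.21, adjusted p = 7.27e-07). Hmgcs1, an early enzyme of the pathway, rose by 1.58, and the isomerase Idi1 by 2.34. Pmvk, Fdft1, Srebf2, Stard4 and Insig1 were not called, at 0.20, 0.19, 0.28, -0.27 and 0.16.

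The promoters of cholesterol genes are shown with those of the cell cycle, since the members of each list moved together. CCAAT, on either strand, was in all 16 cholesterol promoters matched by symbol and in 27 of 36 cell cycle promoters, against 37.5% of all promoters. Genes called higher held it in 40.1% and genes called lower in 40.6%. It too was picked for display after the counts of the 20 motifs were seen. The Top2a stretch runs slightly into the RefSeq span of that gene (chr11:98992947-99024199). Capitals mark CCAAT or its reverse complement.
Hmgcs1 (chr13:119690101-119690350, + strand): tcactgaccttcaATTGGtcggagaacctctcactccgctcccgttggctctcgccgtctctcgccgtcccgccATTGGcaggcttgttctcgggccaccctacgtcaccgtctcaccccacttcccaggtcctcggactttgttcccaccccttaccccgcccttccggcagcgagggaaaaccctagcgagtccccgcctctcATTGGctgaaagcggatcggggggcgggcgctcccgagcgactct
Idi1 (chr13:8885356-8885605, + strand): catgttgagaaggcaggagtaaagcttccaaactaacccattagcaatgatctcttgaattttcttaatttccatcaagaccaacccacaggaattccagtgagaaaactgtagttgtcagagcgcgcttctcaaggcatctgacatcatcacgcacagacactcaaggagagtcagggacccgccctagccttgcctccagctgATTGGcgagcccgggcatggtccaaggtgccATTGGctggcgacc
Cdk1 (chr10:69352913-69353162, - strand): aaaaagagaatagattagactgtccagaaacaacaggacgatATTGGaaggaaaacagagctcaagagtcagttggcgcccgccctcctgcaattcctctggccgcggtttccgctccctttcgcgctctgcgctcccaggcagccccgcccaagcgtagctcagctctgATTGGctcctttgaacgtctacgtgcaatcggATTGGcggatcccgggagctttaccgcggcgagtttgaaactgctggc
Top2a (chr11:99024190-99024439, - strand): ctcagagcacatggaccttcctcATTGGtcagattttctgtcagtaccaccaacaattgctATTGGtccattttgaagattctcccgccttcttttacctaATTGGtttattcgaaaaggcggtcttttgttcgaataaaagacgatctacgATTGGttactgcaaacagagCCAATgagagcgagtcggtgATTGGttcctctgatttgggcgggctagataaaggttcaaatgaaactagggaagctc

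Cell cycle genes fell in all 44 tested members, with a median of -1.42 and 42 to 44 lower when any 1 library was left out. Mki67, a mark of dividing cells, was at 392, 321, 467 and 228 CPM at E18.5 and 101, 71.6, 114 and 83.5 CPM at 12 weeks (-1.93 ± 0.23, adjusted p = 1.02e-04). Cdk1, the mitotic kinase, went from 59.1, 67.2, 84.3 and 66.1 to 29.2, 23.4, 19.7 and 20.9 CPM (-1.57 ± 0.16), and Top2a, which untangles replicated DNA, fell by 1.22. The largest fall was that of Ccne1, cyclin E1, at -2.51. Pcna, the replication clamp, had the smallest, at -0.38 ± 0.10 (adjusted p = 0.00969), and was not called without a filter on low counts (adjusted p = 0.0933) or in 1 fit with IVF ovaries (0.127).

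Receptors for hormones and growth factors were mixed. Of 27 tested, 6 rose, 7 fell and 14 were not called, with a median of -0.01. Esr1, the estrogen receptor alpha, was at 268, 182, 267 and 98.3 CPM at E18.5 and 157, 202, 273 and 178 CPM at 12 weeks, with an interval of -0.67 to 0.65 around a change of -0.01. Esr2, the estrogen receptor beta of granulosa cells, rose by 2.79. For Pgr, the progesterone receptor, the E18.5 libraries spread from 1.61 to 35.4 CPM and the interval was -1.70 to 1.51, wide in both directions. Ghr, the growth hormone receptor, was not called (0.40), except as Ghr without 12-week replicate 1 (0.60, adjusted p = 0.0334), and Rxfp2, a relaxin family receptor, fell by 4.02.

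In the hedgehog pathway, by which granulosa cells signal to theca, 4 of 13 tested rose and 7 fell. The ligand Ihh rose from 0.338, 0.355, 0.198 and 0.129 to 50.5, 37, 37.1 and 45.5 CPM (7.38 ± 0.29, adjusted p = 4.94e-07), and the ligand Dhh from 3.72, 3.19, 3.36 and 4.83 to 20.2, 23.5, 24.1 and 22.3 CPM (2.57 ± 0.20). The targets Ptch1 and Hhip, which restrain the pathway, rose by 1.08 and 4.74. Gli1, a transcriptional target, was not called at 0.62, and was called without E18.5 replicate 4 (1.08, adjusted p = 0.00219). The effectors Gli2 and Gli3 fell by 1.56 and 2.45, and the ligand-binding co-receptor Cdon by 2.47. With 1 library left out the change became 5.38 for Hhip without E18.5 replicate 1.

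Of 15 tested genes of ovulation and cumulus expansion, 4 rose and 1 fell (2 without 12-week replicate 1). Areg, an epidermal growth factor-like ligand induced by luteinizing hormone, had no count at E18.5 and 2.53, 2.28, 3.64 and 2.69 CPM at 12 weeks, at least 45.3-fold higher. Has2, which makes hyaluronan, fell from 20, 9.14, 15.7 and 14.7 to 0.408, 0.298, 0.344 and 0.505 CPM (-5.23 ± 0.34, adjusted p = 3.89e-06). Ptgs2, an inducible prostaglandin synthase, was at 7.61, 4.61, 12.7 and 1.67 and 7.38, 5.11, 12.2 and 8.66 CPM, with no call (0.34, interval -0.81 to 1.5).

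Imprinted genes, expressed from 1 parental allele, fell in 21 of 27 tested and rose in 1, with a median of -2.73. Their summed level went from 24521, 20452, 24829.8 and 20966 CPM to 2404, 2812, 2417 and 2487 CPM. The neighbouring genes H19 (chr7:142575530-142578146) and Igf2 (chr7:142650768-142666816) both fell. H19, a noncoding RNA expressed from the maternal allele, was at 8615, 8184, 10018 and 7076 CPM at E18.5 and 32.9, 25.7, 30.7 and 12.8 CPM at 12 weeks (-8.37 ± 0.36, adjusted p = 7.27e-07). Igf2, the paternally expressed fetal growth factor, was at 4999, 2598, 3699.7 and 2051 and then 7.99, 11.2, 11.8 and 16.9 CPM (-8.12 ± 0.40).

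On chromosome 12, the cluster of Dlk1 (chr12:109452485-109463336), Meg3 (chr12:109540996-109571729), Rtl1, Rian and Mirg also fell. Dlk1, a noncanonical Notch ligand, went from 2153, 1737, 1914 and 2697 to 6.12, 9.52, 5.57 and 1.68 CPM (-8.55 ± 0.52, adjusted p = 2.65e-06). Rtl1 fell by 6.44, and the noncoding RNAs Meg3, Rian and Mirg by 3.94, 3.47 and 3.88. Elsewhere Mest fell by 5.99, Plagl1 by 2.73, Peg3 by 5.12 and Cdkn1c by 4.91. Magel2 had 6.26, 7.1, 8.11 and 6.44 CPM at E18.5 and none at 12 weeks, at least 241-fold lower. The only called rise was Asb4, at 1.92 ± 0.45. Peg10, Sgce, Nnat, Kcnq1ot1 and Ube3a were not called, at -0.37, -0.14, -0.47, -1.06 and -0.18.

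Fetal RNA-binding and growth proteins fell in 17 of 18 tested (median -2.88). Igf2bp1, which binds Igf2 messenger RNA, was at 37.7, 50.9, 83.1 and 24.9 CPM at E18.5 and 0.163, 0.0992, 0 and 0.135 CPM at 12 weeks (-8.89 ± 0.60, adjusted p = 4.65e-06). Igf2bp3 went from 57.7, 63.7, 65.9 and 78.9 to 3.55, 4.41, 2.85 and 3.94 CPM (-4.18 ± 0.18). Hmga2, an architectural chromatin protein of growing tissue, fell by 3.05, and Lin28b, which blocks let-7 maturation, by 3.74. Pou5f1, the pluripotency factor that persists in germ cells, fell by 2.3. Hox genes, of which 30 were tested, fell in 11 cases and rose in 1. Hoxa11 was at 13.5, 25.4, 60.7 and 2.38 CPM at E18.5 and 0.53, 2.08, 0 and 0.539 CPM at 12 weeks, lowest in E18.5 replicate 4 and highest in E18.5 replicate 3, and it fell by 5.07. The rise of Hoxd8, at 0.37, was lost when any of 6 libraries was left out (E18.5 replicates 2, 3 and 4 and 12-week replicates 1, 2 and 4), at adjusted p of 0.0511 to 0.117, while 2 Hox genes rose without E18.5 replicate 1 or 3 or 12-week replicate 3. A left-out library changed the estimate to -4.12 for Hoxa11 without E18.5 replicate 3 and -6.14 for Hoxa11 without 12-week replicate 2.

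DNA methylation genes fell in 9 of 13 tested and rose in 2. Dnmt1, the maintenance enzyme, was at 251, 253, 267 and 217 CPM at E18.5 and 144, 157, 164 and 153 CPM at 12 weeks (-0.68 ± 0.10, adjusted p = 4.33e-04). The de novo enzymes Dnmt3a and Dnmt3b fell by 1.45 and 1.41, and Tet1, which oxidizes methylcytosine, by 1.76. Dnmt3l, the catalytically inactive partner needed in growing oocytes, rose from 0, 0.355, 0 and 0.258 to 1.75, 2.68, 1.2 and 1.31 CPM (3.38 ± 0.75, adjusted p = 0.00405). In 12-week oocytes it had a mean of 13.2 CPM and in cumulus cells 0.14 CPM. The change moved to 4.05 for Dnmt3l without E18.5 replicate 2.

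Collagens and matrix genes fell in 22 of 33 tested and rose in 2, with a median of -1.40. Col1a1, the main fibrillar collagen chain, was at 10744, 8463, 9771 and 13742 CPM at E18.5 and 2049.5, 2093, 1362 and 1572 CPM at 12 weeks (-2.59 ± 0.22, adjusted p = 1.47e-05). Col3a1 fell by 2.03, and Fbn2, a fibrillin of fetal matrix, from 563, 478, 521 and 518 to 38.5, 29, 29.8 and 40.2 CPM (-3.92 ± 0.15). Timp1, which inhibits matrix proteases, rose instead, from 17.1, 13.7, 15.3 and 19.9 to 453, 333, 194 and 118 CPM (4.05 ± 0.40), and Ogn, osteoglycin, by 1.81. Col14a1 had the largest fall, at -4.34.

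Vessel and muscle genes parted. Endothelial genes fell in 8 of 18 tested, the others not being called, with a median of -0.48. Kdr, a receptor for vascular endothelial growth factor, went from 174, 96.6, 117 and 103 to 45.8, 66.2, 49.6 and 60.5 CPM (-1.14 ± 0.20, adjusted p = 0.00104), Pecam1 fell by 0.78 and Cdh5 by 0.83. The lymphatic receptor Lyve1 fell by 1.56, the largest change, and Cdh13 was not called (0.52), except as Cdh13 without E18.5 replicate 4 (0.77, adjusted p = 0.0299). Smooth muscle and pericyte genes rose in 7 of 11 tested. Myh11, smooth muscle myosin, went from 98.8, 72.4, 86.9 and 103 to 644, 849, 595 and 485 CPM (2.83 ± 0.19, adjusted p = 4.94e-06). The actins Acta2 and Actg2 rose by 1.93 and 4.64, whereas the pericyte proteoglycan Cspg4 fell by 1.47. Ovary and oviduct both hold smooth muscle. Summed levels of the smooth muscle and pericyte list at 12 weeks were 3536, 4989, 3684 and 3001 CPM, and at 39 weeks 2200.3 ± 789.8 CPM (n = 5). The oviduct markers given below had their lowest sums in 12-week replicates 2 and 4, at 3426 and 3435 CPM. Those libraries had the highest and the lowest muscle sum. The part of oviduct tissue in this rise was not tested.

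Complement and MHC class II genes rose in 13 of 15 tested, with a median of 2.29. C3, the central complement protein, went from 419, 111, 230.1 and 103 to 1508, 1055, 2571 and 1104 CPM (2.85 ± 0.49, adjusted p = 8.77e-04). Cd74, the class II invariant chain, went from 4.99, 7.81, 4.84 and 18 to 121, 294, 152 and 220.4 CPM (4.44 ± 0.47), and H2-Aa, a class II chain, rose by 4.59. C3 was highest in 12-week replicates 3 and 1, the libraries with the highest sums of the oviduct markers given below. Cd74 was highest in 12-week replicates 2 and 4 instead. The part of oviduct tissue in the result was not tested. Among 19 tested immune cell markers, 9 rose and 3 fell. The pan-leukocyte gene Ptprc rose from 5.16, 2.66, 2.17 and 2.96 to 7.91, 12.3, 9.24 and 8.08 CPM (1.53 ± 0.32), the macrophage gene C1qa by 1.13 and Itgax, a mark of dendritic cells and macrophages, by 2.70. The macrophage gene Adgre1 was not called (0.20). S100a8, a neutrophil protein, fell from 4.06, 7.98, 8.3 and 7.92 to 0.0816, 0.198, 0.0687 and 0.135 CPM (-5.83 ± 0.45), and its partner S100a9 fell by 4.45 and Mrc1, the macrophage mannose receptor, by 0.83. Leaving out 1 library moved the log2 change by over 1.5-fold, to 3.46 for C3 without E18.5 replicate 1, 5.11 for Cd74 without E18.5 replicate 4, 5.29 for H2-Aa without E18.5 replicate 4 and 3.78 for Itgax without E18.5 replicate 4.

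Markers of neighbouring tissues also differed by age, and the tissue that these transcripts came from was not tested. Oviduct and ciliated epithelium markers were higher at 12 weeks in 14 of 16 tested, and their summed level was 295, 253, 345 and 151 CPM at E18.5 and 6442, 3426, 8254 and 3435 CPM at 12 weeks. Ovgp1, the oviductal glycoprotein, was at 29.2, 26.8, 25.4 and 2.64 and then 5361, 2702, 6369 and 2758 CPM (7.69 ± 0.74, adjusted p = 3.08e-05). Foxj1, the master factor of motile cilia, rose by 4.63, while Pax8, a mark of the Mullerian duct, was not called (-0.20). At 39 weeks the summed level of the same list was 99.9 ± 89.4 CPM (n = 5), below every 12-week library. Adipocyte markers rose in all 8 tested, with sums of 206, 982, 2303 and 2649 CPM at 12 weeks against 29.8 to 40.4 at E18.5. Adipoq, which fat cells secrete, was at 8.77, 42.2, 190.1 and 146 CPM at 12 weeks.

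Most tested markers of liver cells fell. A list of 12 hepatocyte genes, put together after Alb and Fga appeared among the largest falls, had 9 lower and 1 higher. Alb, serum albumin, was at 75.8, 211, 331 and 28.3 CPM at E18.5 and 0, 0.595, 0.344 and 0.943 CPM at 12 weeks. Summed over the list, levels were 249.7, 596, 927 and 115 CPM at E18.5 and 330.1, 301, 333 and 309.5 CPM at 12 weeks, so the ages overlapped. Such a sum can rest on 1 gene: at 39 weeks Trf had a median of 252 CPM, and the list sum 293 CPM. The sum is therefore not read as an amount of liver RNA. Among E18.5 libraries Alb was highest in replicate 3 and lowest in replicate 4. H19 had that same highest and lowest library, Igf2 was also lowest in replicate 4, and Dlk1 was highest there. The part of liver tissue in the fall of these genes was not tested. Erythroid genes fell in 6 of 9 tested: Hbb-bs, adult beta globin, went from 392, 657, 744 and 911 to 58.1, 179, 69.8 and 172 CPM (-2.50 ± 0.41) and Hba-a1 fell by 2.47, though near-identical globin copies may share reads. The red cell enzyme Alas2 fell by 1.80 and the anion exchanger Slc4a1 by 5.30. Scaled with the 39-week libraries, summed erythroid levels were 1019 ± 353 CPM at E18.5 and 193 ± 105 CPM at 12 weeks. At 39 weeks they were 1037 ± 884 CPM (n = 5), from 189 to 2140 CPM by library. Rmrp, a polymerase III RNA, was at 5.92, 3.73, 187 and 2.58 CPM at E18.5 and 0.245, 0.397, 0.481 and 0.269 at 12 weeks, and its change of -7.13 became -3.50 without E18.5 replicate 3, and Rn7sk at -2.83 was not called without that library (-1.57, adjusted p = 0.0774).

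**Figure D4:**
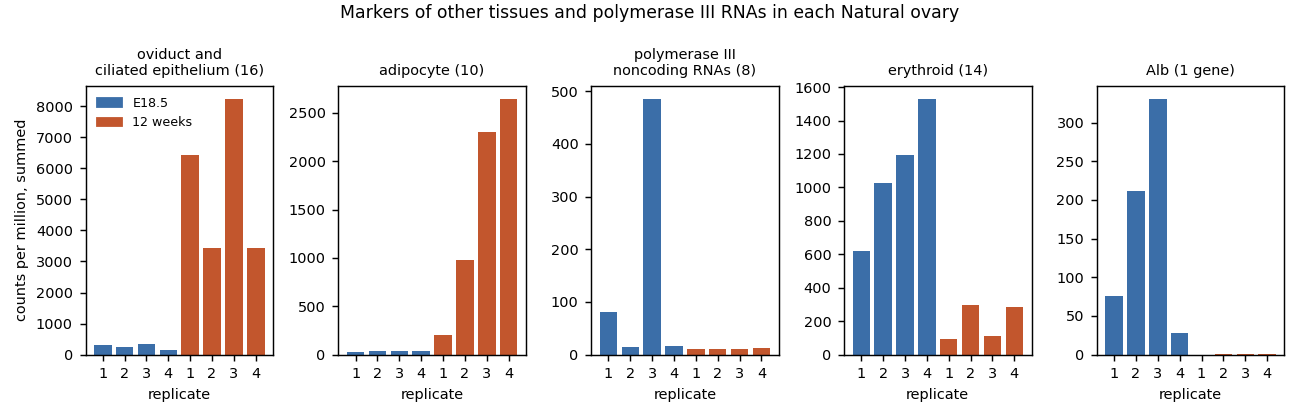
Summed CPM of marker lists (number of genes in the table in parentheses), and of Alb, in each of the 8 Natural ovaries, as bars from 0. Oviduct and adipocyte markers are high in 12-week libraries, the polymerase III RNAs in E18.5 replicate 3, and erythroid genes and Alb in E18.5 libraries.

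Nerve and glia genes fell in 5 of 8 tested and rose in 2: Th, tyrosine hydroxylase, fell from 20.6, 34.7, 14.5 and 55.8 to 0.856, 1.24, 0.618 and 0.876 CPM (-5.14 ± 0.47), and S100b rose by 2.66. Elavl4, a neuronal RNA-binding protein, was called at -1.76 but not when E18.5 replicate 2 or 3 or 12-week replicate 2, 3 or 4 was left out (adjusted p = 0.0584 to 0.121). Of the adrenal genes only Mrap, a melanocortin receptor accessory protein, rose (8.15), a gene that fat also expresses, and Cyp21a1 was at or under 1.03 CPM in every library. Surface epithelium genes fell in 5 of 10 tested and rose in 1 (2 without E18.5 replicate 3): the mesothelial gene Upk3b fell by 1.75 and Muc16 by 2.94, Krt18 rose by 1.02, and Krt19 was not called, with an interval of -0.40 to 0.40. In the list of Sertoli and testis genes 2 of 6 tested rose and 2 fell, among them Fgf9 by 2.71, with Dhh counted under hedgehog as well, and 4 fell without 12-week replicate 4. With 1 library left out the change became -2.11 for Muc16 without E18.5 replicate 1.

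The largest rises by the naming rule (called, at least 10 CPM in the higher age, ages not overlapping) were ranked by fitted log2 change, which for a gene at 0 in 1 age rests on a small prior count and is no measured size. Bounds are given for those genes, and a gene with a larger measured change, such as Cyp11a1, can fall outside the 10. Ccdc153 had no count at E18.5 and 94.8, 53.6, 119 and 50.2 CPM at 12 weeks, at least 1288-fold higher. Gm19935, Fam216b, Tmem212, Sntn, Zfp474 and Tcte1 were also at 0 at E18.5, and were at least 761, 519.9, 368, 368, 332 and 298-fold higher. The kallikrein gene Klk1b21, one of many near-identical copies, was at least 307-fold higher. BC048546 went from 0.169, 0, 0 and 0.258 to 804, 373, 738 and 359 CPM (12.11 ± 0.57), and Akr1c18 completed the 10. Ccdc153, Fam216b, Tmem212, Sntn, Zfp474 and Tcte1 were each highest in 12-week replicate 3, the library with the highest sum of oviduct markers, and so was Gm19935. That tissue's part in the result was not tested. Fam183b, the leading member of the oviduct list, was at least 269-fold higher. A left-out library changed the estimate to 13.10 for BC048546 without E18.5 replicate 4.

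The largest falls were in genes of several kinds, and the tissues that these transcripts came from were not tested. Taf7l, a germ cell paralog of a general transcription factor subunit, was at 42, 61.2, 26.9 and 37.7 CPM at E18.5 and at 0 at 12 weeks, at least 1447-fold lower, and Pet2 was at least 423-fold lower. The neurofilament genes Nefl and Nefm were at 89.9, 45.2, 46.2 and 77.2 and 176, 119, 101 and 306 CPM at E18.5, against 2 and 8 counts in all at 12 weeks. Fga, the fibrinogen alpha chain made by liver, was at 11.5, 32.8, 44.3 and 3.73 CPM and had 2 counts at 12 weeks. Hormad1, Igf2bp1, Dlk1, H19 and Alb, given above, were the others.

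Nuclear genes of oxidative phosphorylation rose in 36 of 79 tested and fell in 2, with a median of 0.36. Uqcrq, a complex III subunit, rose from 58.9, 71.9, 69.3 and 90.5 to 151, 188, 128 and 190.5 CPM (1.18 ± 0.17), and Ndufa4l2 fell by 1.86. Of the mitochondrially encoded genes 5 of 7 tested rose, COX1 by 1.14. They took 1.17% ± 0.211 of all counts at E18.5 and 2.25% ± 0.261 at 12 weeks (SD, n = 4, exact permutation p = 0.0286, two-sided, the smallest possible). The other 6 mitochondrial genes had almost no counts, so this is not the whole mitochondrial transcriptome. Cytosolic ribosomal protein genes fell in 42 of 81 (median -0.41), between 26 (without 12-week replicate 3) and 47 with 1 library left out. The germ cell paralog Rpl10l fell most, by 7.18. Of 77 mitochondrial ribosomal proteins 18 were called higher (23.4%, near the 24.4% of all tested genes), with a list median of 0.11 and Mrpl36 at 0.80. Only 1 was called lower, Mrps22 (-0.51). That call was lost without E18.5 replicate 2 or 4 or 12-week replicate 2, 3 or 4 (adjusted p = 0.0596 to 0.114). The change moved to -7.87 for Rpl10l without 12-week replicate 2.

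Immediate early genes, which many stimuli induce quickly, rose in 11 of 23 tested and fell in 1 (2 without E18.5 replicate 2). Ier3 rose from 14.5, 11, 13.4 and 10 to 77.8, 73.3, 90.7 and 81.7 CPM (2.73 ± 0.15), Fos by 1.28 and Egr1 by 0.67, the last not called when E18.5 replicate 1 or 2 or 12-week replicate 1 or 4 was left out (adjusted p = 0.0518 to 0.0829). Socs3 fell by 0.63. A further list of 7 genes, taken from those discussed for ovary in the source study and so chosen on these samples and no independent evidence, had 1 rise and 3 falls, with 3 rises when E18.5 replicate 4 was left out. The glucose transporter Slc2a1 was among those that fell, from 149, 135, 177 and 97 to 71.3, 59.9, 79.3 and 55.5 CPM (-1.07 ± 0.19).

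Levels in 5 Natural ovaries at 39 weeks (replicate 5 is labelled both 39 and 40 weeks), scaled together with the 8 younger libraries, are given as a description with no test. Mean CPM at 12 and 39 weeks was 2974 ± 795 and 6896 ± 2517 for Star, and 6222 ± 1791 and 9937 ± 2043 for Cyp11a1. For Amh it was 237 ± 35.2 and 116 ± 72.4, and for Inha 893 ± 200.3 and 839 ± 304. Nobox stood at 8.85 ± 4.15 and 6.03 ± 2.36, Zp2 at 41.7 ± 20.7 and 23.5 ± 7.66, and Bmp15 at 19.4 ± 4.94 and 17.5 ± 5.73. H19 remained low at 15.9 ± 4.27 and Sycp3 at 1.6 ± 0.452. Summed steroidogenesis genes reached 30805 ± 7249 CPM at 39 weeks against 17522 ± 4103 at 12 weeks, and 22168 to 37059 against 13873 to 22579 by library. Oviduct and cilia genes at 39 weeks lay below every 12-week library: Ovgp1 ranged from 1.64 to 117 CPM at 39 weeks, Foxj1 from 0.316 to 31 and Ccdc153 from 0.395 to 6.91. Areg, the largest rise among ovulation genes at 12 weeks, had no count at 39 weeks.

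**Figure D5:**
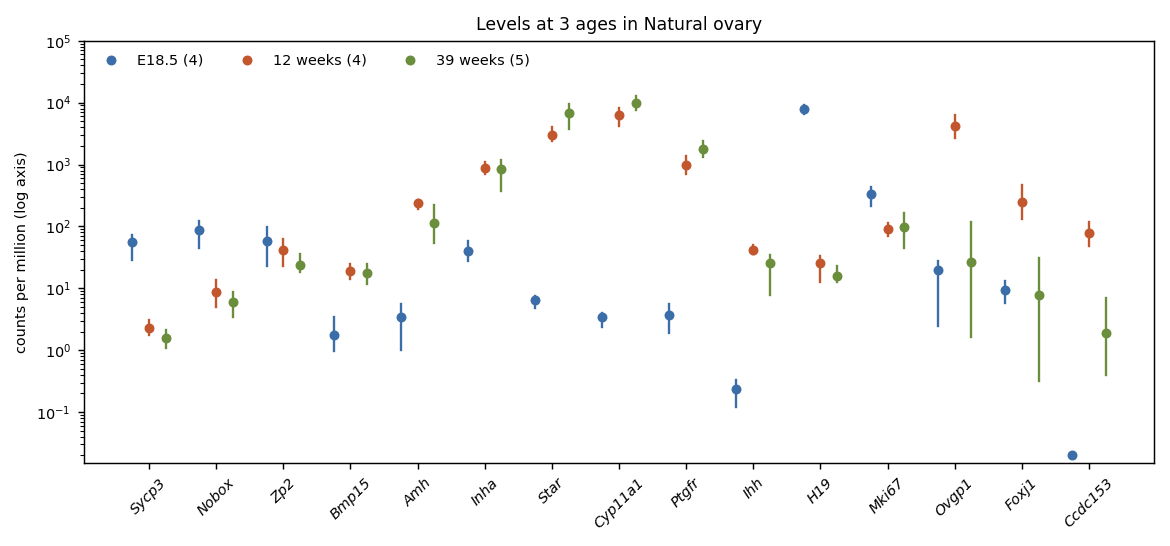
Mean (point) and range (line) of CPM on a log axis in Natural ovary at E18.5 (4 libraries), 12 weeks (4) and 39 weeks (5), with 0 drawn at the bottom of the axis (Ccdc153 at E18.5). Steroid and granulosa genes stay high at 39 weeks, meiotic genes and H19 stay low, and Ovgp1, Foxj1 and Ccdc153 are high at 12 weeks alone.

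Whether the age change differed in ovaries of IVF-conceived offspring was asked with 1 fit over 19 libraries, adding 6 IVF ovaries labelled E18.5 and 5 at 12 weeks. The labels give E18.5 to both groups, but the sources used here differ on whether IVF fetuses were collected on that day or later, so conception and any such gap in fetal age cannot be told apart. Of 17945 genes tested, 1 (0.00557%) had an age change that differed at adjusted p below 0.05 by edgeR, while 2866 had an unadjusted p below 0.05 and DESeq2 called 492. The gene was Cd276, an immune checkpoint ligand of the B7 family. It fell from a mean of 77.7 to 14.2 CPM in Natural and from 67.8 to 28.9 CPM in IVF ovaries, a difference of 1.22 ± 0.18 on the log2 scale (adjusted p = 0.0405). It was not called without Natural E18.5 replicate 4 (adjusted p = 0.0503) or without Natural 12-week replicate 3 (0.142). It was also not called with library size as the only scaling (0.0578) or with replicate number as a block, where 0 genes were called. No IVF library was left out. The next in order, none called, were Ccnb3 (-3.03), Bace2 (-1.49), C1qbp (0.71) and Rps26 (1.10), each at adjusted p = 0.0555, and DESeq2 called all 4. In Natural ovary alone, Bace2, a beta-site protease, rose by 1.56, the germ cell cyclin Ccnb3 fell by 2.36 and Rps26 by 1.03, and C1qbp was not called (-0.02).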

How the data were processed

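RNA was measured in 4 Natural ovaries at E18.5 and 4 at 12 weeks. The authors deposited counts of reads per gene, one table per age, with no normalization. The submitters' processing notes name Trimmomatic 0.32, STAR 2.3.0e, featureCounts 1.5.0, DESeq2 and mm10. Libraries were stranded mRNA-seq, and 27 gene names that the tables turned into numbers stayed in the totals and are not named. Depth was 10689553 to 29904780 counts, and intervals on counts cover counting error only.

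Tables were joined by gene name, filtered with filterByExpr, scaled by TMM and tested with edgeR 4.0.16 (quasi-likelihood, R 4.3.3), Benjamini-Hochberg threshold 0.05, and the script was tested on simulated data. A gene at 0 in 1 age has a bound from 3 counts over the group. Alternatives were DESeq2 1.42.0, other scalings and filters, a replicate block, a fit with IVF ovaries, and each Natural library left out. List counts without each library, and oocyte and cumulus classes without 1 cumulus library, were added after seeing the data.

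The members and lists were chosen with earlier results of these data known. Named genes are the key members of each list, the called member with the largest rise and fall in each, the 10 largest called rises and 10 largest falls with at least 10 CPM and no overlap, and the 5 smallest p-values of the IVF comparison. Some of these are not reported here, and others were named after their values were seen. Promoters come from RefSeq, GRCm38.p6.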

Additional observations from a re-analysis of the deposited data

Results flagged for a closer look

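For each of 175 named genes and each age, the highest or lowest of the 4 libraries was compared with the others by its gap over the whole range. Of 350 such sets of 4 values, 18 had 1 library standing apart. Sets with the same value in all 4 libraries could not be flagged. Chance gives about 1 in 20 for normally distributed values. That rate does not hold for genes near 0, where a single nonzero value always stands apart. At E18.5, replicate 3 stood apart for Rmrp at 187 CPM, Adipoq at 0.395 and Gatm at 89.9. Replicate 4 stood apart for Zar1 at 6.18, Ovgp1 at 2.64, Cyp21a1 at 1.03 and H2-Aa at 6.05. Replicate 1 stood apart for Muc16 at 118, S100a8 at 4.06 and Ddx3y at 0.338, and replicate 2 for Lhcgr at 0.177. At 12 weeks, replicate 4 stood apart for Cyp17a1 at 467 and Hormad1 at 0.0337. Replicate 2 stood apart for C1qa at 112 and Adgre1 at 11.3. Replicate 1 stood apart for Hbb-y and Fga, both at 0.0816, and replicate 3 for Nefl at 0.0687. Several of these are 1 or 2 counts against 0.

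The age change of Cd276 differed between Natural and IVF ovaries by 1.22 on the log2 scale in edgeR's test of the interaction (adjusted p = 0.0405). The sources used here differ on whether IVF fetuses were collected on the same day or later.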

How the results depend on the processing

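The counts of genes called higher and lower held within 1.5 times under DESeq2, 3 other scalings, other filters, the replicate block, a fit with IVF ovaries and each left-out library, with 1 exception: rises of at least 2-fold numbered 1689 where at least 10 counts were required in every library. That filter removes genes at 0 in 1 age. Without any 1 library, 3814 to 4822 genes were higher and 3729 to 4549 lower. Replicate numbers do not pair the ovaries across ages: same-numbered deviations correlated at -0.10, -0.02, 0.08 and 0.04, and no ovary correlated best with its own number. The fit with replicate number as a block called 3928 higher and 3967 lower.

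Genes differing in age change between Natural and IVF numbered 492 by DESeq2, 0 with library size alone and 0 with the block on replicate number. Without any 1 Natural library they numbered 0 to 78 (78 without Natural E18.5 replicate 1, 52 without Natural E18.5 replicate 3). No IVF library was left out. With library size alone 2795 genes had an unadjusted p below 0.05, and with the block 2452. The cause was not tested.

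Among named genes the direction changed for 8, none of them called. With DESeq2, relative log expression, upper-quartile and library size scaling, no filter, at least 10 counts, the replicate block and the fit with IVF, in that order, Esr1 was at 0.031, 0.032, 0.012, 0.017, 0.095, 0.066, 0.068 and 0.074 and Krt19 at 0.039, 0.039, 0.015, 0.016, 0.10, 0.072, 0.029 and 0.075. C1qbp was at 0.019, 0.019, 0.083, 0.048 and 0.048 with DESeq2, relative log expression, no filter, at least 10 counts and the fit with IVF. Zp3 was at 0.14 and Wnt4 at -0.089 with the block, and Pgr at 0.013 without a filter. Leaving out 1 library gave -0.19 to 0.21 for Esr1, -0.099 to 0.17 for Krt19, -0.074 to 0.068 for C1qbp, -0.48 to 0.52 for Zp3, -0.36 to 0.26 for Wnt4, -0.62 to 0.24 for Pgr, -0.0030 to 0.74 for Adgre1 and -0.46 to 0.078 for Pax8. The cause was not tested. Some calls changed too in edgeR's test. With the replicate block Rn7sk, Hoxd8 and Mrps22 were not called (adjusted p = 0.111, 0.0967 and 0.0667). Gdf9, Ooep, H1foo and Gli1 were called there (0.0197, 0.0420, 0.0224 and 0.0486). Without a filter on low counts Pcna, Elavl4 and Mrps22 were not called (0.0933, 0.0617 and 0.114), and Foxl2 was (0.0483). With 4 ovaries an age, genes with few counts have wide intervals, and E18.5 libraries are the shallower.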
